A study of Mus musculus with 12 samples.

Results

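The stress-response module comprised 43 genes of 53465 in the count table of a mouse heart series, taken by symbol from a list that holds the integrated stress response, the unfolded protein response of the endoplasmic reticulum (ER), the cytosolic heat shock response and mitochondrial protein quality control. The list was treated as 4 arms: 13 genes of the integrated stress response, 18 of the ER, 8 of the cytosol and 4 of the mitochondrion. All 43 symbols were found, and 42 of the genes were expressed well enough to be tested; Fgf21 was not.

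RNA from the left ventricle (heart in the labels) was sequenced in 12 libraries, in 4 groups of 3. A17fl/fl mice (ADAM17flox/flox in the labels) carry floxed Adam17 alleles on a C57BL/6J background, and A17α-MHCKO mice (ADAM17alpha-MHCKO) are their littermates in which Cre under the α-myosin heavy chain promoter removes exon 2 of Adam17 in cardiomyocytes, while the other cells of the heart keep the gene. The mice were male, entered at 8 weeks of age, and received doxorubicin (DOX) at 5 mg/kg intraperitoneally on days 0, 7, 14 and 21, to a cumulative 20 mg/kg, or an equal volume of normal saline (NS). Hearts were taken 4 weeks after the last injection, and each genotype has 1 group with saline and 1 with doxorubicin, written for example as A17fl/fl + NS.

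Cells answer misfolded protein compartment by compartment. In the ER, the sensors PERK (Eif2ak3), IRE1 (Ern1) and ATF6 raise chaperones, folding enzymes and degradation factors; PERK and related kinases also slow translation and favour ATF4, the transcription factor of amino acid synthesis and stress genes. In the cytosol HSF1 drives the inducible heat shock genes, and the mitochondrial matrix has its own chaperonin and proteases, all of which have been studied in the heart because cardiomyocytes are long-lived and turn over much protein. Doxorubicin is an anthracycline that damages DNA and mitochondria, and ADAM17 is a membrane protease that sheds ligands and receptors such as TNF and its receptors.

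Total counts per library were between 15950717 and 21725076. TMM-scaled CPM (counts divided by effective library size) of Adam17 itself were 70.9, 48.7 and 43.6 in A17fl/fl + NS, 48.1, 53.2 and 48.4 in A17fl/fl + DOX, 35.3, 34.9 and 34.2 in A17α-MHCKO + NS and 27.9, 36.8 and 32.2 in A17α-MHCKO + DOX hearts, so every knockout library was below every floxed one (log2 fold change -0.64 ± 0.12 SE over both treatments, adjusted p = 0.446 in the edgeR quasi-likelihood test). The deletion covers 1 exon in 1 cell type, and reads from other exons and other cells are counted too. A17fl/fl + NS replicate 1 stood apart from the other 11 libraries. It lay at -97.5 on the first principal component (40.3% of the variance) against -1.13 to 18.2 for the others, and its marker genes summed to 19933 CPM for cardiomyocytes (8 genes, 31916 to 49202 elsewhere), 8733 for fibroblasts (8 genes, 1329 to 2940 elsewhere), 939 for macrophages (6 genes, 368 to 528) and 2390 for neutrophils (6 genes, 9.88 to 67.9). Calls of members lost without this library are named beside the counts of each comparison. In a bulk sample, fewer cells of a type and less RNA per cell cannot be told apart. Marker genes of the atrium (4 genes) summed to between 332 and 8048 CPM, which varied within groups as well as between them.

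Levels of the 43 genes were compared per transcript length. On the FPKM scale (fragments scaled to transcript length and library size, mean of 12 libraries) the highest was Hspb1, a small heat shock protein, at 97.5, followed by the mitochondrial chaperonin Hspd1 at 79.5, the lectin chaperone Calr at 63.6, the constitutive cytosolic chaperone Hspa8 at 50.9 and the ER chaperone BiP, Hspa5, at 49.7. All 4 mitochondrial genes were at 38.1 FPKM or more. The integrated stress arm was low except for its transcription factors Atf4 (46.5 FPKM) and Atf5 (18.03), and the serine synthesis enzymes Phgdh (0.762) and Psat1 (0.910) were under 1. Fgf21, a hormone that the same arm can induce, had a CPM of 0 in 11 libraries and 0.185 in A17α-MHCKO + NS replicate 1. The inducible chaperones Hspa1a (2.56) and Hspa1b (4.45) stood far below their constitutive relative Hspa8.

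**Figure D1:**
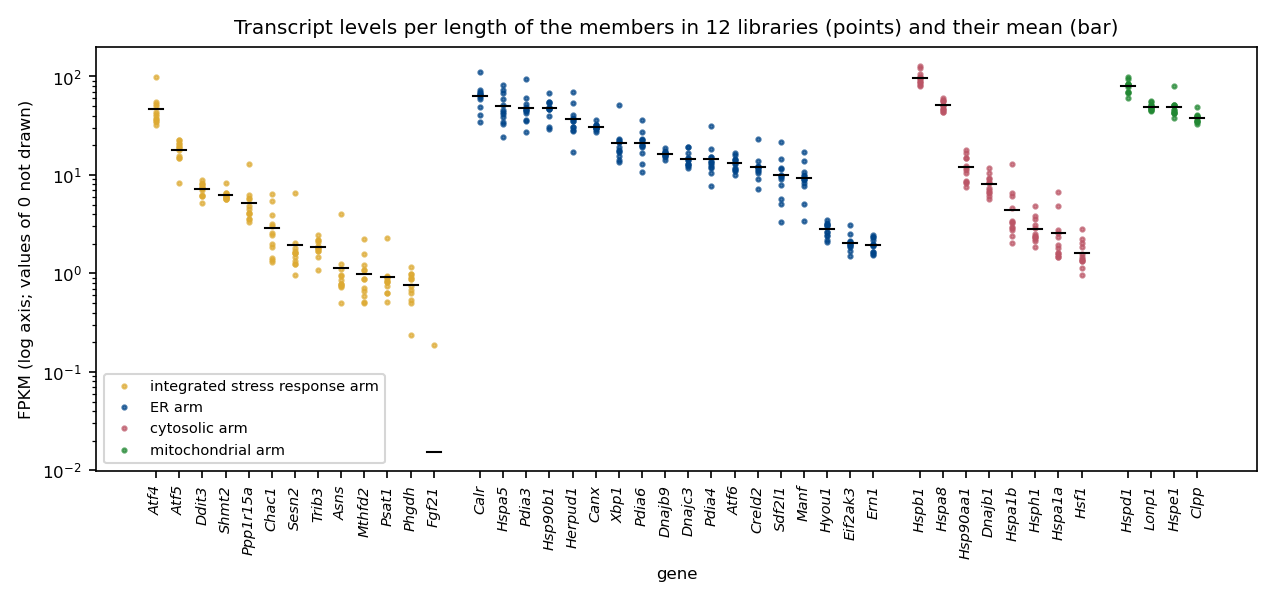
FPKM of the 43 genes on a log axis, by arm and in falling order of the mean; points are the 12 libraries and bars their mean, and values of 0 are not drawn. The mitochondrial genes lie at 38.1 FPKM or above on average, while Mthfd2, Psat1, Phgdh and Fgf21 average under 1.

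The comparisons used a pair of call rules. The first asked for a Benjamini-Hochberg adjusted p under 0.05 over the 16101 genes tested in the edgeR quasi-likelihood test; the second, taken from the study's methods, combined a log2 difference larger than 1 in size with p under 0.05 before adjustment and required at least 1 group to average above 1 FPKM. By the first rule 0 of 42 members were called in any comparison, and few genes of any kind were: 0% of all genes for DOX in A17fl/fl mice, 0% for DOX in A17α-MHCKO mice, 0.00621% for genotype after DOX, 0.0186% for genotype after NS, 0% for the interaction, 0% for DOX over both genotypes and 0.0248% for genotype over both treatments. DESeq2, run beside edgeR, called 4 members for DOX in A17fl/fl mice (Chac1, Hspa1a, Hspa1b and Dnajb1), 2 for genotype after NS (Hspa1a and Hspa1b), 1 for DOX over both genotypes (Hspa1b) and 0 elsewhere. Of all genes to which DESeq2 gave an adjusted p, it called 0.985%, 0.931% and 0.873% in these comparisons, 0.255% for DOX in A17α-MHCKO mice, 0.00993% for genotype after DOX, 0.0984% for the interaction and 0.126% for genotype over both treatments.

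In A17fl/fl mice, Chac1 and the inducible Hsp70 genes had the largest differences with DOX, all lower. By the second rule, 3 of 42 members were called, all lower (2.82% of all genes were called, 2.22% lower): the glutathione-degrading enzyme Chac1 and both Hspa1 genes. At an unadjusted p under 0.05 in the edgeR test there were 10 members (10.7% of all genes), of which 9 were lower (6.58% of all genes were lower): Atf4, Chac1, Shmt2, Ppp1r15a, Dnajc3, Hspa1a, Hspa1b, Hsp90aa1 and Dnajb1; Hsf1 was the 1 higher. Without A17fl/fl + NS replicate 1 there were 8 members, all lower. The share of all genes at this p was not counted in that fit. Ern1, Dnajb9, Herpud1 and Hsph1 were new among the 8. The p-values of Atf4 (0.0536), Shmt2 (0.129), Ppp1r15a (0.0644), Dnajc3 (0.0521), Hsp90aa1 (0.0833) and Hsf1 (0.128) in edgeR were above 0.05. Of the 4 integrated stress members Chac1 alone remained. The 2 groups of 3 libraries did not overlap in 11 members, against 13.3% of all genes.

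In A17α-MHCKO mice, members passed with DOX no more often than all genes did. The second rule called 0 members (0.658% of all genes), 2 had an unadjusted p under 0.05 in edgeR (6.42% of all genes), namely Hsf1 at -0.65 ± 0.22 and the large chaperone Hsph1 at -0.58 ± 0.25 (log2 fold change ± SE), and 5 did not overlap (16.9% of all genes). Between the genotypes after DOX, 0 members were called by the second rule (0.205% of all genes), 0 had an unadjusted p under 0.05 (2.7% of all genes) and 3 did not overlap (14.1% of all genes).

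Between the genotypes after NS, the second rule called 5 members, all lower in the knockout (2.99% of all genes, 2.32% lower): Asns, Chac1, Sesn2, Hspa1a and Hspa1b. In edgeR 8 members had an unadjusted p under 0.05 (10.1% of all genes), 7 of them lower (6.53%), and 7 did not overlap (10.9%). When A17fl/fl + NS replicate 1 was left out, the p-values of Asns (0.48), Sesn2 (0.32), Eif2ak3 (0.0819) and Dnajb1 (0.0502) in edgeR were above 0.05. This comparison shares its A17fl/fl + NS libraries with that of DOX in A17fl/fl mice, so that 1 set of high values enters both. The map of the 42 tested genes by library shows where those values sit.

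**Figure D2:**
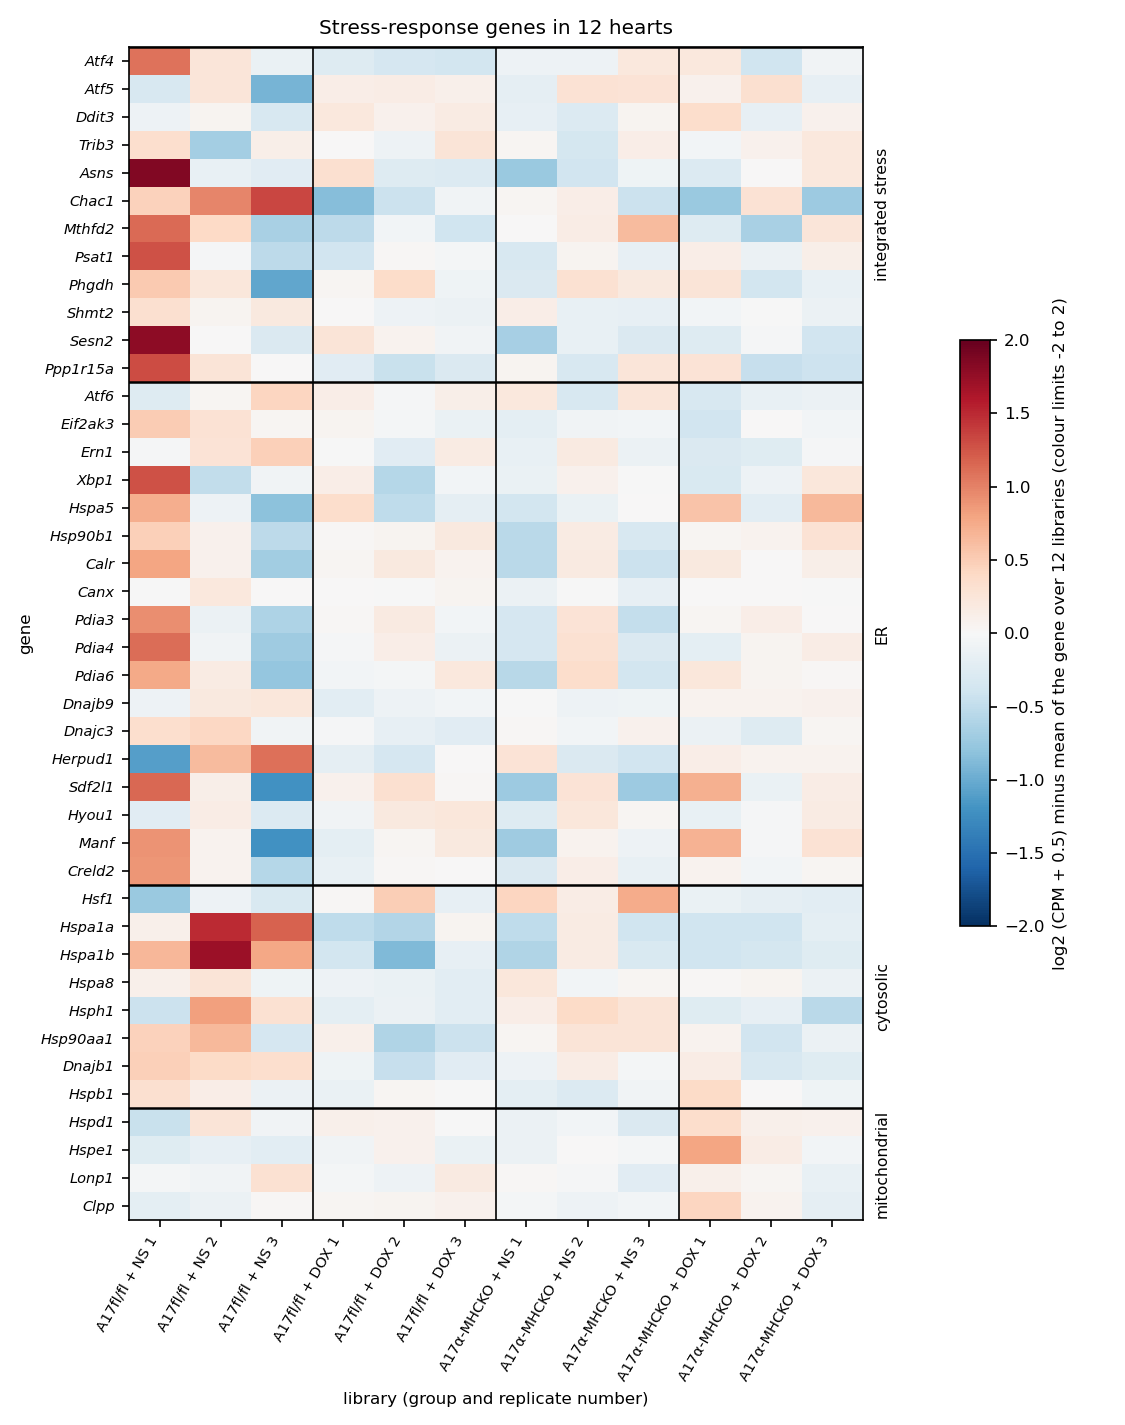
Heat map of the 42 tested genes (vertical axis, by arm) in 12 libraries (horizontal axis, by group); colour is log2 (CPM + 0.5) minus the mean of the gene over the 12 libraries, with colour limits at -2 and 2. A17fl/fl + NS replicate 1 holds the highest value of 21 of the 42 genes, and replicate 2 of the same group that of 5 of the 8 cytosolic genes.

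The high values of the saline floxed hearts came from different libraries in different arms. A17fl/fl + NS replicate 1 was the highest of all 12 libraries in 21 of 42 members: 9 of 12 in the integrated stress arm, 11 of 18 in the ER arm, 1 of 8 in the cytosolic arm and 0 of 4 in the mitochondrial arm, where it was the lowest in 3. Replicate 2 was the highest in 5 of 8 cytosolic members. Replicate 3 was the lowest of the 12 in 9 of 18 ER members and 4 of 12 integrated stress members. In Hspa5, Calr, Pdia3, Pdia4, Pdia6, Herpud1, Sdf2l1, Manf and Creld2 both the highest and the lowest of the 12 values were those of saline floxed hearts.

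In the cytosolic arm, the inducible Hsp70 genes Hspa1a and Hspa1b carried the largest differences. CPM of Hspa1a were 7.21, 19.7 and 15.9 in A17fl/fl + NS, 4.59, 4.31 and 6.96 in A17fl/fl + DOX, 4.57, 7.60 and 5.00 in A17α-MHCKO + NS and 4.97, 5.00 and 5.83 in A17α-MHCKO + DOX hearts. CPM of Hspa1b were 17.4, 36.4 and 18.9 in A17fl/fl + NS, 8.30, 5.66 and 9.57 in A17fl/fl + DOX, 6.98, 12.2 and 8.72 in A17α-MHCKO + NS and 8.06, 8.38 and 9.11 in A17α-MHCKO + DOX hearts. Only the saline floxed hearts were high, at a mean of 24.2 ± 10.6 for Hspa1b against 7.84 ± 1.99, 9.29 ± 2.65 and 8.52 ± 0.538 (SD, n = 3); replicate 2 was the highest in both genes, and the Hspa1a value of replicate 1 lay inside the range of the A17α-MHCKO + NS hearts.

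The log2 fold change with DOX in A17fl/fl mice was -1.43 ± 0.35 (SE) for Hspa1a and -1.63 ± 0.31 for Hspa1b (edgeR, adjusted p = 0.333 and 0.297), and for genotype after NS it was -1.31 ± 0.35 and -1.38 ± 0.31 (edgeR, adjusted p = 0.308 and 0.242). DESeq2 gave adjusted p-values of 0.0241 and 0.00121 for DOX, and 0.0444 and 0.008002 for genotype. Without A17fl/fl + NS replicate 1 the DOX values were -1.75 ± 0.26 and -1.82 ± 0.30 (edgeR, adjusted p = 0.103 and 0.114). Without replicate 2, the highest, Hspa1b was -1.21 with DOX (edgeR, adjusted p = 0.0423). Between genotypes it was -0.96 (edgeR, adjusted p = 0.0642), under the limit of 1. At an adjusted p under 0.05 that fit called 391 of 16445 genes for DOX and 672 for genotype. A17fl/fl + NS replicate 2 also had the highest sum of mesothelium markers, 122 CPM (5 genes, 3.78 to 77.0 elsewhere). Its immediate-early genes summed to 213 CPM (7 genes), against 599 in replicate 1 and 96.7 to 176 in the other libraries. Its cold-inducible RNA-binding genes had the lowest sum, 49.9 CPM (2 genes, 57.0 to 133 elsewhere). The part of these genes in the result was not tested. DOX in A17α-MHCKO mice gave -0.12 ± 0.35 and -0.13 ± 0.31 (edgeR, unadjusted p = 0.73 and 0.685).

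Hspa1a and Hspa1b are neighbouring copies, and the counting may split their reads unevenly. Of the 100-base windows of the longest Hspa1a transcript, 47.07% were found unchanged in that of Hspa1b, so each gene's own count is uncertain. Their summed counts gave a log2 fold change of -1.55 ± 0.30 (SE) with DOX in A17fl/fl mice (edgeR, adjusted p = 0.297), -1.36 ± 0.30 for genotype after NS (adjusted p = 0.238), -0.13 for DOX in A17α-MHCKO mice and 0.07 for genotype after DOX. The 200 bases before the start of transcription are shown because both genes differed in the same comparisons; they are identical at 199 positions. They come from RefSeq on GRCm38.p6, another build than the GRCm39 that the submitters' processing notes name, and are chr17:34972157-34972356 and chr17:34959239-34959438, both read on the minus strand. Capitals mark GAANNTTC, an inverted pair of heat shock units, which 7.86% of 32851 RefSeq promoters of 300 bases hold on either strand; this shorter motif was added after the 3-unit heat shock element (0.603% of promoters) had matched neither gene.
Hspa1a: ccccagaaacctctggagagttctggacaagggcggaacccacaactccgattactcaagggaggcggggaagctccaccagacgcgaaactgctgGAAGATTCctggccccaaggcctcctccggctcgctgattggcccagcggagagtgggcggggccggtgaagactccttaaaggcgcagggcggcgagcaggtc
Hspa1b: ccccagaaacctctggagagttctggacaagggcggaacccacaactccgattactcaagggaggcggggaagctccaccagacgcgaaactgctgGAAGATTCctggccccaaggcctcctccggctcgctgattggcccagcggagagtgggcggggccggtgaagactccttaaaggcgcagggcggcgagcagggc

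Dnajb1 and Hsp90aa1 were also lower at an unadjusted p under 0.05 with DOX in A17fl/fl mice. Dnajb1, the Hsp40 partner of Hspa1a, had 35.4, 33.1 and 32.3 CPM in A17fl/fl + NS, 23.9, 18.4 and 21.6 in A17fl/fl + DOX, 23.6, 28.1 and 24.6 in A17α-MHCKO + NS and 28.3, 20.3 and 21.4 in A17α-MHCKO + DOX hearts. All 3 saline floxed hearts were above the other 9. The log2 fold change was -0.66 ± 0.15 (SE) with DOX in A17fl/fl mice (edgeR, unadjusted p = 0.00121, adjusted p = 0.324; DESeq2, adjusted p = 0.0279), which stays under the limit of 1, and -0.40 ± 0.15 for genotype after NS (edgeR, adjusted p = 0.409). Without A17fl/fl + NS replicate 1 the DOX value was -0.62. Hsp90aa1, the inducible cytosolic Hsp90, was -0.60 ± 0.26 with DOX in A17fl/fl mice and -0.52 ± 0.27 without that replicate. CPM of Hspa8, the constitutive Hsp70, were 501, 561 and 439 in A17fl/fl + NS, 437, 426 and 405 in A17fl/fl + DOX, 545, 449 and 482 in A17α-MHCKO + NS and 476, 487 and 433 in A17α-MHCKO + DOX hearts. The floxed groups did not overlap, with a log2 fold change of -0.24 ± 0.14 (edgeR, unadjusted p = 0.1).

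Hsph1, a large chaperone that works with Hsp70, had negative log2 fold changes with DOX of like size in both genotypes, at -0.50 ± 0.25 and -0.58 ± 0.25 (SE). Its CPM were 22.7, 55.0 and 38.2 in A17fl/fl + NS, 27.0, 28.4 and 26.5 in A17fl/fl + DOX, 33.7, 40.2 and 37.1 in A17α-MHCKO + NS and 25.9, 27.6 and 21.0 in A17α-MHCKO + DOX hearts. The knockout groups did not overlap, and the floxed groups overlapped only through replicate 1 of the saline hearts, without which the A17fl/fl value was -0.77 ± 0.16 (edgeR, unadjusted p = 0.000618). The small heat shock gene Hspb1, abundant in muscle, ranged from 146 to 232 CPM and had no unadjusted p under 0.05 in the 4 comparisons of a pair of groups.

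Hsf1, the transcription factor of the arm, was higher where Hspa1a, Hspa1b and Dnajb1 were lower with DOX in A17fl/fl mice and for genotype after NS, while with DOX in A17α-MHCKO mice all 4 log2 fold changes were negative. Its CPM were 12.1, 19.1 and 16.5 in A17fl/fl + NS, 20.8, 29.1 and 18.3 in A17fl/fl + DOX, 27.8, 22.9 and 34.6 in A17α-MHCKO + NS and 18.8, 18.003 and 17.7 in A17α-MHCKO + DOX hearts. Saline knockout hearts had the highest mean, and none of them overlapped the saline floxed hearts or the DOX knockout hearts. The log2 fold change was 0.84 ± 0.22 (SE) for genotype after NS (edgeR, unadjusted p = 0.00275, adjusted p = 0.306), 0.52 ± 0.22 for DOX in A17fl/fl and -0.65 ± 0.22 for DOX in A17α-MHCKO mice. Without A17fl/fl + NS replicate 1 the first was 0.67 ± 0.21 and the second 0.35 ± 0.21 (edgeR, unadjusted p = 0.128). HSF1 acts mainly through activation of the protein, which transcript counts do not measure.

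**Figure D3:**
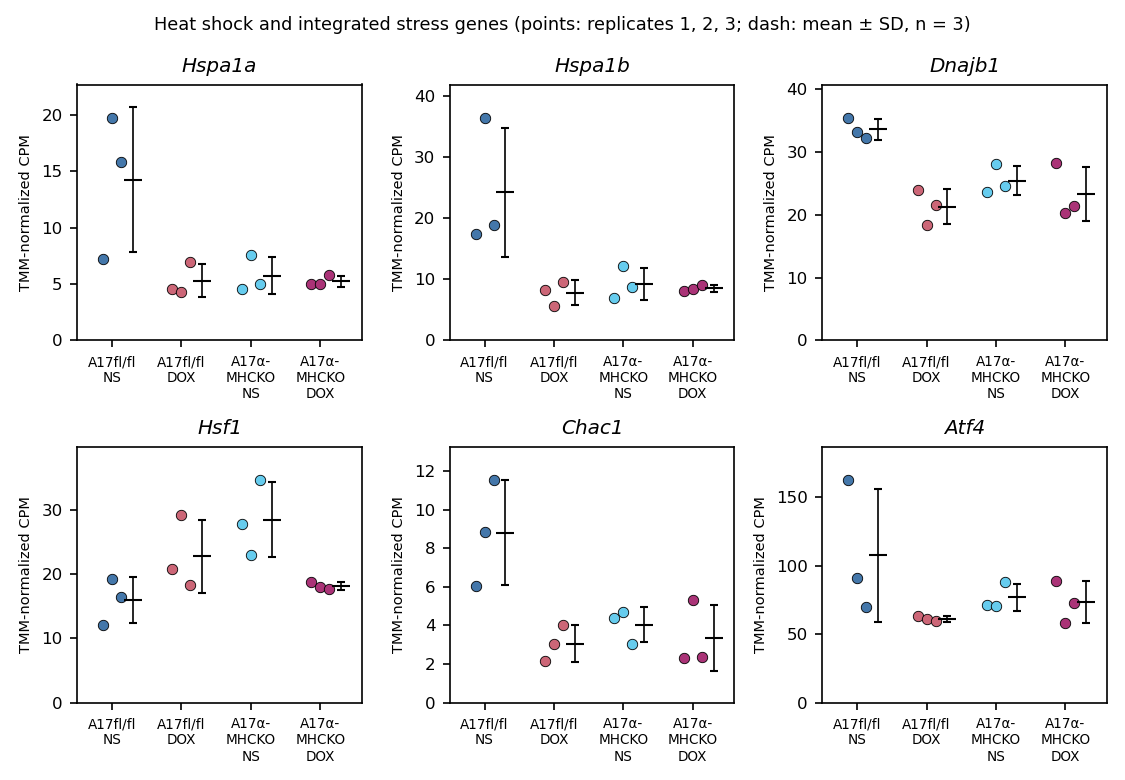
CPM (vertical axes, from 0) of Hspa1a, Hspa1b, Dnajb1, Hsf1, Chac1 and Atf4 in the 4 groups; points are replicates 1, 2 and 3 from left to right and the dash with its bar is the mean ± SD (n = 3). In Dnajb1 all 3 saline floxed hearts lie above the other 9. In Hsf1 the saline knockout hearts have the highest mean, at 27.8, 22.9 and 34.6, and overlap A17fl/fl + DOX replicate 2 at 29.1.

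In the integrated stress response arm, Chac1, an ATF4 target that degrades glutathione, met the second rule for DOX in A17fl/fl mice and for genotype after NS. Its CPM were 6.06, 8.86 and 11.5 in A17fl/fl + NS, 2.14, 3.02 and 4.04 in A17fl/fl + DOX, 4.38, 4.71 and 3.02 in A17α-MHCKO + NS and 2.33, 5.33 and 2.37 in A17α-MHCKO + DOX hearts. The 3 saline floxed hearts were above the other 9, and here replicate 1 was the lowest of them. The log2 fold change was -1.52 ± 0.38 (SE) with DOX in A17fl/fl mice (edgeR, unadjusted p = 0.00205, adjusted p = 0.334; DESeq2, adjusted p = 0.0261) and -1.12 ± 0.38 for genotype after NS (edgeR, adjusted p = 0.348), and without replicate 1 it was -1.73 ± 0.37 and -1.33 ± 0.37. The genotype value missed the limits without A17fl/fl + NS replicate 3 (-0.88; edgeR, unadjusted p = 0.0515) and without A17α-MHCKO + NS replicate 3, and met them in the other 10 of 12 fits that left out 1 library. DOX in A17α-MHCKO mice gave -0.28 ± 0.38. Its counts were low, between 34 and 184 in a library.

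Asns and Sesn2, also called for genotype after NS, rested on 1 high library, and the calls were lost in some other fits too. Of 12 fits that each left out 1 library, Asns met the limits in 9 and Sesn2 in 10. Both missed them without A17fl/fl + NS replicate 1 and without A17α-MHCKO + NS replicate 1. Asns, which makes asparagine, had 14.4, 3.23 and 3.01 CPM in A17fl/fl + NS, 4.65, 2.95 and 2.92 in A17fl/fl + DOX, 1.98, 2.68 and 3.37 in A17α-MHCKO + NS and 2.90, 3.64 and 4.25 in A17α-MHCKO + DOX hearts. Sesn2, a stress-induced inhibitor of mTORC1 signaling, had 21.6, 5.92 and 4.70 CPM in A17fl/fl + NS, 7.11, 6.22 and 5.59 in A17fl/fl + DOX, 3.52, 5.27 and 4.71 in A17α-MHCKO + NS and 4.85, 5.78 and 4.37 in A17α-MHCKO + DOX hearts. In both genes replicate 1 of the saline floxed hearts was above every other library by a wide margin, and the other 11 overlapped. With all libraries the genotype effect after NS was -1.36 ± 0.54 (SE) for Asns and -1.25 ± 0.47 for Sesn2 (edgeR, adjusted p = 0.429 and 0.405). Without replicate 1 it was -0.22 ± 0.30 and -0.24 ± 0.23, and the DOX effect in A17fl/fl mice went from -0.97 and -0.77 to 0.17 and 0.24.

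Atf4, the central transcription factor of the arm, was also highest in that library. Its CPM were 162, 90.7 and 69.7 in A17fl/fl + NS, 63.5, 60.7 and 59.3 in A17fl/fl + DOX, 71.2, 70.9 and 88.4 in A17α-MHCKO + NS and 88.9, 58.1 and 73.0 in A17α-MHCKO + DOX hearts. The floxed groups did not overlap, since all 3 DOX hearts lay below 69.7. The log2 fold change with DOX in A17fl/fl mice was -0.81 ± 0.27 (SE; edgeR, unadjusted p = 0.0114, adjusted p = 0.38) and without replicate 1 -0.39 ± 0.18 (unadjusted p = 0.0536). ATF4 is controlled largely at translation, which these counts do not measure. Ppp1r15a, the phosphatase subunit that ends the response, had 67.0, 32.3 and 27.1 CPM in A17fl/fl + NS, 22.8, 19.5 and 21.9 in A17fl/fl + DOX, 28.0, 21.5 and 32.0 in A17α-MHCKO + NS and 32.5, 19.3 and 19.9 in A17α-MHCKO + DOX hearts. Its DOX effect in A17fl/fl mice was -0.98 ± 0.32 with replicate 1 and -0.48 ± 0.23 without it.

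Ddit3 (CHOP), a transcription factor tied to cell death, met neither rule. Its CPM were 15.2, 16.9 and 13.03 in A17fl/fl + NS, 19.1, 17.4 and 18.5 in A17fl/fl + DOX, 14.6, 13.4 and 17.03 in A17α-MHCKO + NS and 21.1, 14.6 and 17.3 in A17α-MHCKO + DOX hearts. The floxed groups did not overlap, DOX hearts being higher, with a log2 fold change of 0.28 ± 0.17 (SE) in A17fl/fl and 0.24 ± 0.17 in A17α-MHCKO mice; over both genotypes it was 0.26 ± 0.12 (edgeR, unadjusted p = 0.0493, adjusted p = 0.467). It was the 1 member that was higher with DOX over both genotypes at an unadjusted p under 0.05, beside 10 that were lower. Its unadjusted p there was 0.0549 in edgeR without A17fl/fl + NS replicate 1 and 0.0638 in DESeq2. The folate enzyme Mthfd2 had 10.4, 6.04 and 2.69 CPM in A17fl/fl + NS, 2.96, 4.31 and 3.29 in A17fl/fl + DOX, 4.51, 5.01 and 7.21 in A17α-MHCKO + NS and 3.65, 2.66 and 5.40 in A17α-MHCKO + DOX hearts, and was highest in A17fl/fl + NS replicate 1. Its effect of DOX in A17α-MHCKO mice was -0.51 ± 0.43. The serine enzymes were at low levels: Psat1 and Phgdh ranged from 3.95 to 15.0 and from 0.752 to 3.17 CPM, each with A17fl/fl + NS replicate 1 at the top. Trib3, a pseudokinase, ranged from 3.41 to 7.45 CPM, and Shmt2, the mitochondrial serine enzyme, from 32.3 to 45.8, both also highest in that library. Atf5, a transcription factor related to Atf4, ranged from 32.6 to 77.7 CPM and was highest in A17α-MHCKO + DOX replicate 2. Replicate 1 also summed to 599 CPM in immediate-early genes (7 genes, 96.7 to 213 elsewhere) and to the fibroblast, macrophage and neutrophil marker levels given above; their part in these results was not tested.

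The sequence TGATGNAA, the core of the C/EBP-ATF response element that ATF4 binds with C/EBP partners, was searched on both strands of the RefSeq promoters. Of the 43 genes 37 had a promoter in the table, and Atf6, Hyou1, Manf, Hsf1, Hspa8 and Hsp90aa1 had none. The core was found in 4 of 13 integrated stress members (Trib3, Asns, Chac1 and Fgf21) and in Herpud1 of the ER arm, and in 3.97% of all promoters. The 20-base stretches below are shown for the members among these that differed most between libraries, with the core in capitals as it reads on the gene's strand; they are chr2:119351043-119351062 (plus strand), chr6:7693219-7693238 (minus) and chr8:94386311-94386330 (plus) on GRCm38.p6.
Chac1: ctgccgTTGCATCActcctg
Asns: gccacaTGATGAAActtccc
Herpud1: ggcgggTTGCATCAgcccgc
The 3 genes that share this core had different patterns over the 12 hearts: Asns was high in replicate 1 of the saline floxed hearts, Herpud1 was lowest there, and Chac1 was high in all 3.

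In the ER arm 0 of 18 members met the second rule in any of the 7 comparisons. Hspa5 (BiP), the chaperone that holds the sensors inactive, had 542, 304 and 186 CPM in A17fl/fl + NS, 417, 229 and 289.7 in A17fl/fl + DOX, 252, 299 and 329 in A17α-MHCKO + NS and 487, 281 and 513 in A17α-MHCKO + DOX hearts. All 4 groups overlapped, and replicate 1 of the saline floxed hearts was the highest library. The DOX effect was -0.14 ± 0.36 (SE) in A17fl/fl and 0.54 ± 0.37 in A17α-MHCKO mice (edgeR, unadjusted p = 0.706 and 0.168), and without replicate 1 the A17fl/fl value was 0.35 ± 0.31, of the opposite sign. The A17α-MHCKO value was then 0.54 ± 0.28 (edgeR, unadjusted p = 0.0754). With only the groups compared, Hspa5 and Manf were higher with DOX in A17α-MHCKO mice at an unadjusted p under 0.05 in edgeR. Under limma with library weights Hsp90b1 and Calr were. The share of all genes at this p was not counted in those fits.

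The folding enzymes shared the wide spread of the saline floxed hearts. Pdia4, a disulfide isomerase, had 82.5, 36.2 and 23.1 CPM in A17fl/fl + NS hearts and 29.9 to 46.9 in the other 9. Sdf2l1, Manf, Pdia3, Pdia6, Calr, Hsp90b1 and Creld2 likewise had their highest value in replicate 1 of the saline floxed hearts. Canx, the membrane-bound lectin chaperone, had the smallest ratio of highest to lowest value in the arm, from 208 to 270.3 CPM. Xbp1, whose transcript IRE1 splices, had 218, 63.6 and 85.0 CPM in A17fl/fl + NS, 98.4, 60.1 and 86.8 in A17fl/fl + DOX, 81.8, 95.3 and 89.3 in A17α-MHCKO + NS and 72.6, 84.0 and 106 in A17α-MHCKO + DOX hearts. Its effect with DOX in A17fl/fl mice was -0.58 ± 0.38 (SE) and without replicate 1 0.13 ± 0.22, and gene counts do not tell its spliced form from the unspliced one.

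Herpud1, a factor of ER-associated degradation, was ordered the opposite way to the folding enzymes in the saline floxed hearts. Its CPM were 81.1, 269.9 and 377 in A17fl/fl + NS, 155, 139 and 175 in A17fl/fl + DOX, 211, 142 and 133 in A17α-MHCKO + NS and 193, 183 and 184 in A17α-MHCKO + DOX hearts. Replicate 1 was the lowest of the 12 and replicate 3 the highest. With all libraries the DOX effect in A17fl/fl mice was -0.64 ± 0.41 (SE; edgeR, adjusted p = 0.588), and without replicate 1 it was -1.05 ± 0.21 (edgeR, unadjusted p = 0.0003, adjusted p = 0.17), which meets the second rule; the genotype effect after NS was then -0.999 ± 0.21. Without replicate 3 the DOX effect was -0.17. After DOX the knockout hearts were all above the floxed ones, by 0.26 ± 0.40.

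Of the sensors, Eif2ak3 alone had an unadjusted p under 0.05 between a pair of groups with all libraries. Eif2ak3 (PERK) had 23.1, 19.9 and 16.7 CPM in A17fl/fl + NS, 16.9, 15.8 and 14.7 in A17fl/fl + DOX, 14.0, 15.4 and 15.5 in A17α-MHCKO + NS and 12.3, 16.3 and 15.5 in A17α-MHCKO + DOX hearts. The saline groups did not overlap, with a log2 difference of -0.41 ± 0.16 (SE; edgeR, unadjusted p = 0.0243) that was -0.29 ± 0.15 without replicate 1 of the saline floxed hearts. CPM of Ern1 (IRE1) were 20.2, 25.0 and 28.9 in A17fl/fl + NS, 20.6, 17.5 and 23.1 in A17fl/fl + DOX, 18.5, 23.4 and 19.0 in A17α-MHCKO + NS and 16.7, 17.4 and 20.3 in A17α-MHCKO + DOX hearts. Its groups overlapped in each comparison, and without replicate 1 it was -0.41 ± 0.16 with DOX in A17fl/fl mice (edgeR, unadjusted p = 0.0292). CPM of Atf6 were 101, 124 and 164 in A17fl/fl + NS, 133, 119 and 132 in A17fl/fl + DOX, 141, 97.0 and 144 in A17α-MHCKO + NS and 97.2, 109 and 111 in A17α-MHCKO + DOX hearts. After DOX Atf6 was lower in all knockout hearts than in the floxed ones (-0.27 ± 0.19, edgeR, unadjusted p = 0.184).

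Among the ER co-chaperones, Dnajc3, which inhibits PERK, had 94.5, 99.6 and 70.8 CPM in A17fl/fl + NS, 73.6, 66.2 and 63.6 in A17fl/fl + DOX, 75.8, 72.2 and 79.5 in A17α-MHCKO + NS and 68.9, 62.2 and 77.1 in A17α-MHCKO + DOX hearts. Its log2 fold change was -0.38 ± 0.15 with DOX in A17fl/fl mice (edgeR, unadjusted p = 0.0255) and -0.33 ± 0.15 without A17fl/fl + NS replicate 1 (edgeR, unadjusted p = 0.0521). Dnajb9, a co-chaperone of BiP, had 43.4, 53.9 and 54.6 CPM in A17fl/fl + NS, 40.6, 43.6 and 45.2 in A17fl/fl + DOX, 46.8, 43.7 and 44.1 in A17α-MHCKO + NS and 49.3, 49.1 and 49.6 in A17α-MHCKO + DOX hearts. The knockout groups did not overlap, at a log2 difference of 0.14 ± 0.12. Without replicate 1 its DOX effect in A17fl/fl mice was -0.33 ± 0.10 (edgeR, unadjusted p = 0.00692). Hsp90b1, the Hsp90 of the ER, had 348, 266 and 174 CPM in A17fl/fl + NS, 253, 259 and 287 in A17fl/fl + DOX, 171, 281 and 199.9 in A17α-MHCKO + NS and 258, 261 and 304 in A17α-MHCKO + DOX hearts, all groups overlapping, and its DOX effect in A17α-MHCKO mice was 0.33 ± 0.24. Hyou1, a large ER chaperone, ranged from 27.6 to 39.2 CPM.

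The ER stress element, CCAAT and CCACG with 9 bases between them, is the site that ATF6 and NF-Y bind together. It was found, on either strand, in 7 of the 15 ER members with a promoter in the table (Hspa5, Hsp90b1, Calr, Canx, Pdia6, Dnajc3 and Creld2) and in 0.119% of all 32851 promoters; TGACGTGG, a site of XBP1 and ATF6, was found in 0 members and in 0.676% of promoters. Of the other arms, 0 members held the ER stress element. A stretch of 27 bases is shown for each of 4 of these chaperone genes, with the element in capitals from CCAAT to CCACG or its reverse complement: chr2:34772021-34772047 (plus strand), chr10:86705634-86705660 (minus), chr8:84847071-84847097 (minus) and chr11:50325796-50325822 (minus), on GRCm38.p6.
Hspa5: ttcaCCAATCGGAGGCCTCCACGacgg
Hsp90b1: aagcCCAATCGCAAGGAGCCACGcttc
Calr: aacgCGTGGTCGACCCTCATTGGccca
Canx: ttgaCCAATCACCACGCTCCACGaaga
Of these, Hspa5, Hsp90b1 and Calr were highest in replicate 1 of the saline floxed hearts, and Canx, with the same element, was not.

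**Figure D4:**
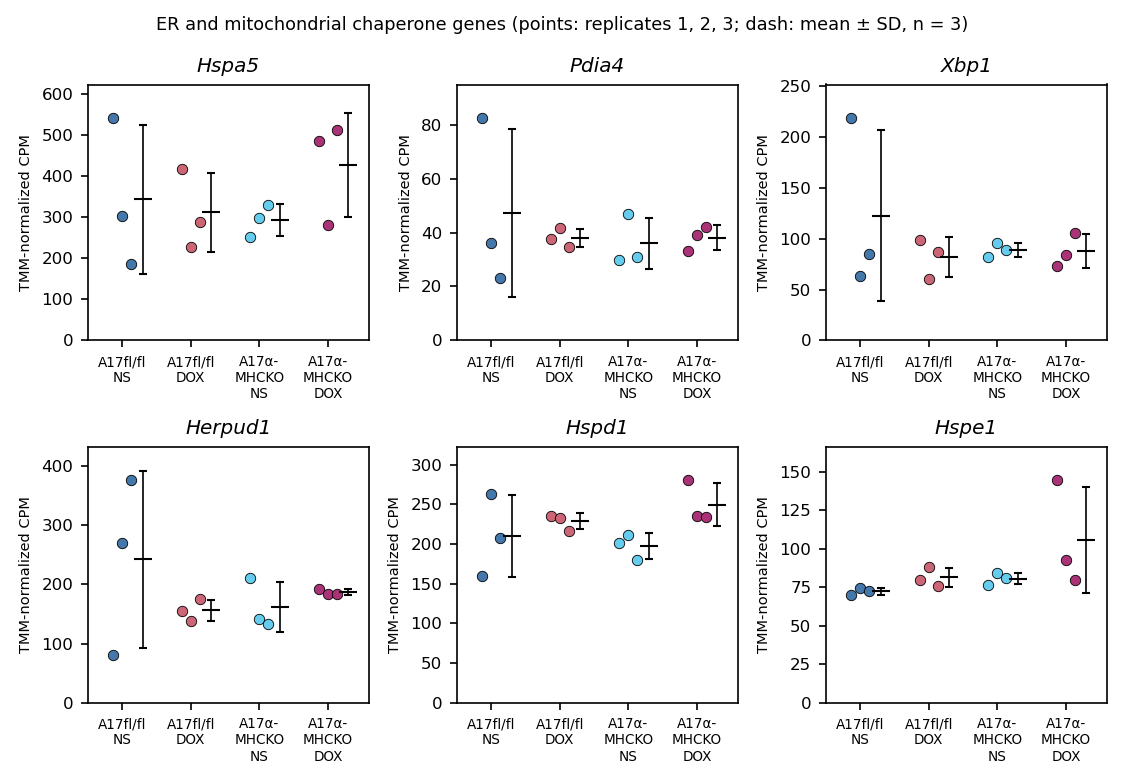
CPM (vertical axes, from 0) of Hspa5, Pdia4, Xbp1, Herpud1, Hspd1 and Hspe1 in the 4 groups; points are replicates 1, 2 and 3 from left to right and the dash with its bar is the mean ± SD (n = 3). Replicate 1 of the saline floxed hearts is the highest point of Hspa5, Pdia4 and Xbp1 and the lowest of Herpud1, and Hspe1 has 1 high point, 144 CPM in A17α-MHCKO + DOX replicate 1.

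The mitochondrial arm had positive medians with DOX in both genotypes, 0.14 in A17fl/fl and 0.27 in A17α-MHCKO mice on the log2 scale, beside -0.04 and 0.00 for all genes tested. With all libraries in the edgeR fit with TMM scaling, 0 of its 4 members had an unadjusted p under 0.05 in the 7 comparisons. Hspd1, the matrix chaperonin, had 160.2, 262 and 208 CPM in A17fl/fl + NS, 235, 233 and 217 in A17fl/fl + DOX, 201, 212 and 179.9 in A17α-MHCKO + NS and 281, 235 and 233 in A17α-MHCKO + DOX hearts. Its partner Hspe1, the lid of the chaperonin, had 70.2, 74.6 and 72.3 CPM in A17fl/fl + NS, 79.7, 88.3 and 75.9 in A17fl/fl + DOX, 76.5, 84.1 and 81.1 in A17α-MHCKO + NS and 144, 92.7 and 79.9 in A17α-MHCKO + DOX hearts. In Hspd1 the DOX knockout hearts all lay above the saline ones, while Hspe1 had 1 high library, A17α-MHCKO + DOX replicate 1. The DOX effect in A17α-MHCKO mice was 0.34 ± 0.17 (SE) for Hspd1 and 0.39 ± 0.19 for Hspe1 (edgeR, unadjusted p = 0.0751 and 0.0616), and without A17α-MHCKO + DOX replicate 1 it was 0.25 and 0.10. Without A17fl/fl + NS replicate 1, which enters through the shared estimate of the spread, Hspd1 was 0.34 ± 0.13 (edgeR, unadjusted p = 0.0219, adjusted p = 0.372).

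A17α-MHCKO + DOX replicate 1 was the highest in 3 of 4 mitochondrial members, Hspd1, Hspe1 and the protease Clpp. CPM of Clpp were 40.0, 42.1 and 46.7 in A17fl/fl + NS, 47.2, 47.5 and 48.4 in A17fl/fl + DOX, 44.6, 42.6 and 44.0 in A17α-MHCKO + NS and 61.7, 48.4 and 40.3 in A17α-MHCKO + DOX hearts. Its floxed groups did not overlap, with DOX at 0.15 ± 0.15 (edgeR, unadjusted p = 0.322). A17α-MHCKO + DOX replicate 1 also had the highest sum of adipocyte markers, 1115 CPM (5 genes, 429 to 861 elsewhere), whose part in the result was not tested. Lonp1, the main matrix protease, had 142, 139 and 181 CPM in A17fl/fl + NS, 141, 136 and 165 in A17fl/fl + DOX, 148, 143 and 125 in A17α-MHCKO + NS and 157, 150.1 and 132 in A17α-MHCKO + DOX hearts. All its groups overlapped, with a DOX effect of -0.06 ± 0.15 in A17fl/fl and 0.08 ± 0.15 in A17α-MHCKO mice.

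Hspd1 and Hspe1 lie head to head and share their promoter. Both hold the 3-unit heat shock element, repeats of GAA and TTC with 2 bases between them, which is found in 0.603% of all promoters and in Hsph1 of the cytosolic arm. The shared site is shown because the same bases serve as promoter for both genes: chr1:55088055-55088075 on GRCm38.p6, read on the plus strand, which is that of Hspe1, with 3 units in capitals.
Hspe1: tccgTTCTAGAACCTTCcgga
Over the 12 libraries both genes had their highest value in A17α-MHCKO + DOX replicate 1 and their lowest in A17fl/fl + NS replicate 1. So did Clpp (61.7 and 40.0 CPM), in which the 3-unit element was not found.

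By arm, the median log2 fold change with DOX in A17fl/fl mice was -0.69 in the integrated stress arm, -0.17 in the ER arm, -0.55 in the cytosolic arm and 0.14 in the mitochondrial arm, beside -0.04 for all genes tested. Without A17fl/fl + NS replicate 1 the same medians were 0.15, 0.17, -0.57 and 0.03, beside -0.009 for all genes. The cytosolic median moved little, while those of the integrated stress and ER arms changed sign. For genotype after NS the medians were -0.37, -0.34, -0.21 and -0.03, beside -0.03 for all genes. Without that library they were -0.03, 0.04, -0.26 and -0.12, beside -0.006 for all genes. Members with a negative log2 fold change numbered 32 of 42 with DOX in A17fl/fl mice and 36 of 42 for genotype after NS (55.5% and 54.5% of all genes). Without the library they numbered 21 and 25, and the share of all genes with a negative value was not counted in that fit. With DOX in A17α-MHCKO mice the medians were -0.03, 0.13, -0.13 and 0.27, and for genotype after DOX 0.03, 0.04, 0.13 and 0.10. The members of the second rule without replicate 1 were Chac1, Herpud1, Hspa1a and Hspa1b with DOX in A17fl/fl mice and Chac1, Hspa1a and Hspa1b for genotype after NS.

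**Figure D5:**
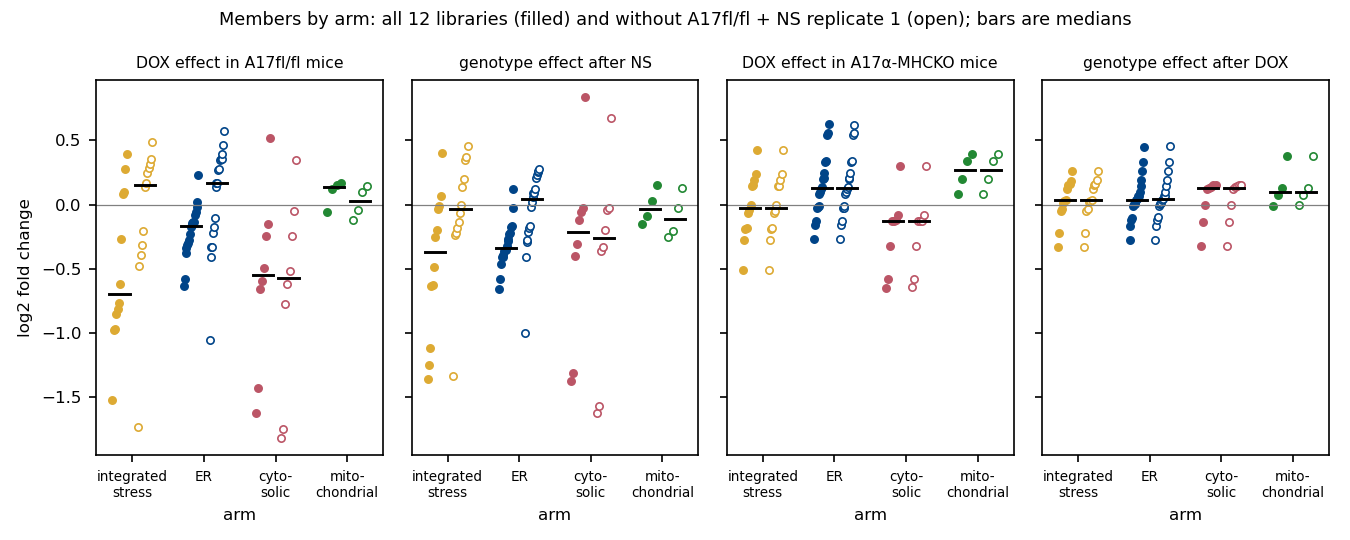
Log2 fold changes of the members (vertical axis) by arm (horizontal axis) in 4 comparisons, with all 12 libraries (filled points) and without A17fl/fl + NS replicate 1 (open points); bars are medians. In the left-hand comparison the integrated stress median goes from -0.69 to 0.15 and the cytosolic median from -0.55 to -0.57.

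Whether the DOX effect depended on genotype was tested by the interaction, the DOX effect in A17α-MHCKO minus that in A17fl/fl mice. By the second rule 4 of 42 members were called (2.13% of all genes): Chac1 at 1.24 ± 0.54 (SE), Hspa1a at 1.31 ± 0.49, Hspa1b at 1.498 ± 0.44 and Hsf1 at -1.16 ± 0.31. In edgeR 6 members had an unadjusted p under 0.05 (5.99% of all genes), the others being Dnajb1 at 0.53 ± 0.22 and Dnajb9 at 0.37 ± 0.16, and the smallest adjusted p of a member in edgeR was 0.828. For Chac1, Hspa1a and Hspa1b, the positive value goes with saline floxed hearts whose mean was above that of the other 3 groups. For Hsf1 the saline knockout hearts had the highest mean. Hspa1b met the limits in all 12 fits that each left out 1 library, Hsf1 in 10, Hspa1a in 8 and Chac1 in 5; without A17fl/fl + NS replicate 1 the values were 1.69, -0.996, 1.63 and 1.46, and Herpud1 met the limits at 1.26.

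With both genotypes together, 11 members had an unadjusted p under 0.05 for DOX in edgeR (10.7% of all genes), 10 of them lower (5.2% of all genes), and 0 met the second rule (0.814% of all genes). In the fit that omitted A17fl/fl + NS replicate 1, the p-values of Atf4 (0.0877), Ddit3 (0.0549), Mthfd2 (0.134) and Ppp1r15a (0.0595) in edgeR were above 0.05. Hspa1b was the lowest in p, at -0.88 ± 0.22 (SE; edgeR, adjusted p = 0.295; DESeq2, adjusted p = 0.0283), and Chac1 the lowest in value at -0.90 ± 0.27. With both treatments together, 4 members had an unadjusted p under 0.05 for genotype (6.65% of all genes), Sesn2, Eif2ak3, Hspa1a and Hspa1b, all lower, and 0 met the second rule (0.87% of all genes). Without that library the p-values of Sesn2 (0.0883) and Eif2ak3 (0.0831) in edgeR were above 0.05.

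Other genes of the same pathways were counted from 4 further lists, chosen for their pathway. They were counted with all 12 libraries only, so whether the counts rested on A17fl/fl + NS replicate 1 was not tested. Of 31 tested genes of the integrated stress response, 7 were lower and 0 higher at an unadjusted p under 0.05 with DOX in A17fl/fl mice in edgeR, against 10.7% of all genes either way and 6.58% lower, with a median of -0.28 on the log2 scale, and 1 met the second rule: Atf3, a transcription factor downstream of ATF4 and an immediate-early gene, at -1.46 ± 0.56 (SE). CPM of Atf3 were 21.8, 56.2 and 10.5 in A17fl/fl + NS and 10.8, 7.76 and 13.7 in A17fl/fl + DOX hearts, with replicate 2 far above the rest. Of 38 tested ER genes, 4 were lower and 0 higher in that comparison, and 1 met the second rule: Ero1l, an ER oxidase, at -1.23 ± 0.50. CPM of Ero1l were 91.8, 17.2 and 20.0 in A17fl/fl + NS hearts against 15.6 to 21.3 in the 9 others, so it rested on replicate 1. Of 37 cytosolic chaperone genes 3 were lower and 1 higher, and of 16 mitochondrial genes 0 passed either way.

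With DOX in A17α-MHCKO mice, 6 of 37 cytosolic chaperone genes and 4 of 16 mitochondrial genes were higher and 0 lower at an unadjusted p under 0.05 in edgeR (medians 0.02 and 0.19), against 6.42% of all genes either way, 1 of 31 integrated stress genes was higher, and 0 of 38 ER genes passed. Whether these counts rested on A17α-MHCKO + DOX replicate 1 was not tested. For genotype after NS, the same edgeR p limit was passed by 5 of 38 ER and 5 of 37 cytosolic chaperone genes, all lower. Of 31 integrated stress genes 3 were lower and 3 higher, and of 16 mitochondrial genes 0 passed. Of all genes 10.1% passed either way and 6.53% were lower. The second rule called Atf3 at -1.79 ± 0.56 and Ero1l at -1.35 ± 0.50, in the same saline floxed hearts as above. For genotype over both treatments it called Atf3 at -1.10 ± 0.39 (0.87% of all genes were called). Between the genotypes after DOX, 0 of the genes of all 4 lists had an unadjusted p under 0.05 in edgeR, against 2.7% of all genes.

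Each group held 3 libraries, and an exact two-sided permutation test of 3 against 3 cannot give a p under 0.1, the value it gave wherever the groups did not overlap. All samples came 4 weeks after the last dose, so that the values say nothing of the days after an injection.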

How the data were processed

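Mouse left ventricle was profiled by RNA-seq in 12 libraries, 3 in each of 4 groups taken from the labels. Libraries were made with a stranded mRNA kit, per the study's methods. The deposited table holds raw fragment counts per gene and FPKM per gene, made by the authors, who counted fragments with StringTie; the submitters' processing notes name CASAVA 1.8, HISAT2, SAMtools 1.3.1, edgeR and the build GRCm39, and the strand setting of the counting is not given in the sources used here. Counts were the input of the tests and FPKM only ranked genes by level and set the level limit; 0 columns were left unmatched and 0 genes had no name.

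Genes were filtered with filterByExpr (16101 kept), scaled by TMM and fitted in R 4.3.3 with edgeR 4.0.16 as 1 quasi-likelihood model of the 4 group means, with Benjamini-Hochberg adjustment. Standard errors are approximate (the absolute log2 fold change over the square root of F). The fit was tested on simulated counts. The members, arms and further lists were chosen with earlier results of these data known. Values in every library were given to members that either rule called, to the 2 smallest p-values per arm and comparison, and to Atf4, Ddit3, Hspa5, Xbp1, Hsf1, Hspa1a, Hspa1b and Hspd1; further genes were named only where called. Ranges, and values of other members, were added after they were seen. Total counts were 15950717 to 21725076 per library, and the replicate spread includes the counting error. No 2 libraries of a group agreed within sampling noise. Alternatives were RLE, upper-quartile or total-count scaling, summed counts of Hspa1a and Hspa1b, no filter, DESeq2 1.42.0, limma 3.58.1 with library weights, only the groups compared, a replicate block and leaving out each library. Promoters were RefSeq sequences on GRCm38.p6, 250 bases before to 50 after the start, searched with Python 3.11.15. The labels number the libraries of a group without naming the mouse of each, so p-values measure the spread between these samples.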

Additional observations from a re-analysis of the deposited data

How the results depend on the processing

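Members called by the adjusted p numbered 0 in edgeR with all libraries. With DESeq2 they numbered 4 for DOX in A17fl/fl mice, 2 for genotype after NS and 1 for DOX over both genotypes. In edgeR, leaving out each library gave 0 to 1 for the first 2 of these. The 1 was Hspa1b for DOX and Hsf1 for genotype, both without A17fl/fl + NS replicate 2. That fit called 391 of 16445 genes for DOX and 672 for genotype. By the study's limits, leaving out each library gave 3 to 8 members for DOX in A17fl/fl mice (8 without A17fl/fl + NS replicate 3, with 4.45% of all genes, and 6 without replicate 2, with 6% of all genes; 4 without replicate 1, with 1.24%), 3 to 5 for genotype after NS (3 without replicate 1, with 1.55%, and without A17α-MHCKO + NS replicate 1, with 2.58%), 1 to 9 for the interaction (9 without A17fl/fl + NS replicate 3, with 3.98%, 2 without A17α-MHCKO + NS replicate 1 or 3, with 2.07% and 1.77%, and 1 without A17fl/fl + DOX replicate 2, with 1.64%) and 0 to 1 for DOX over both genotypes. Genotype after NS gave 3 members under limma with library weights (1.6% of all genes), with only the groups compared (1.71%) and with the replicate block (2.07%). The replicate numbers did not pair the libraries (correlations of same-numbered deviations -0.083 to 0.240, 3 of 18 over 0.1). Over the fits without 1 library, the DOX effect in A17fl/fl mice ranged from -1.33 to 0.17 in Asns, -1.13 to 0.24 in Sesn2, -0.89 to 0.13 in Xbp1 and -0.44 to 0.35 in Hspa5, and the genotype effect after NS from -0.77 to 0.25 in Xbp1 and -0.53 to 0.26 in Hspa5, each positive without A17fl/fl + NS replicate 1; Hspa5 was also positive (0.04) without A17fl/fl + DOX replicate 2. Under limma with library weights signs turned in Hspa5 (0.29 and 0.26), Sesn2 (0.087, DOX in A17fl/fl mice) and Xbp1 (0.10, genotype after NS). The cause was not tested. Chac1, Hspa1a and Hspa1b met the limits for DOX in A17fl/fl mice in 12 of 12 fits without 1 library. Other size factors moved the median of all genes by under 0.1.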
